A study of Mus musculus with 12 samples.

Results

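The genes described here are Trp53, which encodes the transcription factor p53, its paralogs Trp63 and Trp73, and its inhibitors Mdm2 and Mdm4. They were taken by symbol from the count table of a bulk RNA-seq experiment, as 5 of 24108 listed genes, and all 5 were found. Of these, 4 passed the low-count filter that left 13745 genes for testing, and Trp73 did not. Neural progenitor cells (NPCs) from the subventricular zone (SVZ) of postnatal C57BL/6 mice (P9–P12) were sequenced in 4 groups of 3 libraries, with 1 library per group from each of the experiments 17_9, 25_9 and 1_10. The genotypes were p53-/- and p53+/+, each grown in co-culture and alone. NPCs of every group were expanded in medium with EGF, bFGF, FBS and bovine pituitary extract, then kept for 48 h either on laminin-coated plates (alone) or on a monolayer of primary brain microvascular endothelial cells (bmvECs, co-culture), from which they were taken by selective trypsinization. The p53-/- NPCs were p53LoxP/LoxP cells infected with an adenovirus carrying Cre under the CMV promoter (Ad-CMV-iCre) and used within a few passages. The methods give cells infected with a control adenovirus as their counterpart, and the labels call the p53+/+ cells wild type. Which exons of Trp53 are removed is not given in the sources used here. The bmvECs carried an intact Trp53 gene as far as the sources state, so that their RNA, where present in a co-culture library, adds to its Trp53 counts.

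p53 is kept scarce in unstressed cells by Mdm2, an E3 ubiquitin ligase that marks it for degradation, and by Mdm4, a related protein that binds its transactivation domain and masks it. Mdm2 is itself transcribed by p53, which closes a negative feedback loop, and p53 abundance is set mostly at the level of the protein, which these RNA data do not measure. In neural stem and progenitor cells, p53 restrains self-renewal and proliferation. p63 and p73 share the DNA-binding domain of p53, p63 being known for epithelial stem cells and p73 for multiciliated ependymal cells and the developing forebrain.

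The windows around the annotated starts of Mdm2, Trp53 and Trp73 are shown because these are the 3 members whose levels were lower in every p53-/- library than in any p53+/+ library of the same culture in both cultures, as 7.35% of all tested genes and 5.59% of all genes with a count were. Windows of 300 bases, from 250 bases before to 50 bases after the annotated start, were taken from RefSeq for assembly GRCm38.p6, where 4 of the 5 members matched with 6 windows. They are written 5′ to 3′ on the strand of the gene, and capitals mark a match to the p53 decamer, the repeat unit of which p53 response elements are built, searched on both strands and reading the same on both. The Mdm2 window is chr10:117710709-117711008 (minus strand) and the Trp53 window is chr11:69580109-69580408 (plus strand). Trp73 has 2 windows on the minus strand, at chr4:154139826-154140125 and, further into the gene, at chr4:154097124-154097423. Both are printed because counts per gene do not tell transcripts from the 2 starts apart.
Mdm2: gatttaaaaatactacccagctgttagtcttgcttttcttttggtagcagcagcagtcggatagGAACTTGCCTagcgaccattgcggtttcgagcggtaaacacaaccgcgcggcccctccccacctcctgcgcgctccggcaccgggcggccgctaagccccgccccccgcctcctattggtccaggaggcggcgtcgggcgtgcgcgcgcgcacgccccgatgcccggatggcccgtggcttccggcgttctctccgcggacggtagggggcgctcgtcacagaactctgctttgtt
Trp53: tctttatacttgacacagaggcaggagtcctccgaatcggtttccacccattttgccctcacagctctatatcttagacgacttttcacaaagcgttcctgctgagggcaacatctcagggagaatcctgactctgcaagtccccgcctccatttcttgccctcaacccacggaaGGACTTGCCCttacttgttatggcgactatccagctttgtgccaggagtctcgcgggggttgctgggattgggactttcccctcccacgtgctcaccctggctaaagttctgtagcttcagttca
Trp73, first start: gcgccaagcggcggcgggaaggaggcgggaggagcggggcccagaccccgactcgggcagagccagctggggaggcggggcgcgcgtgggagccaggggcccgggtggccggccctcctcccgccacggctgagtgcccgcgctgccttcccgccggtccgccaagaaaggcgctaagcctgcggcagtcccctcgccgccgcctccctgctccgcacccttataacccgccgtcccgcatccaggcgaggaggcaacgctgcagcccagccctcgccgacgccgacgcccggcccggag
Trp73, second start: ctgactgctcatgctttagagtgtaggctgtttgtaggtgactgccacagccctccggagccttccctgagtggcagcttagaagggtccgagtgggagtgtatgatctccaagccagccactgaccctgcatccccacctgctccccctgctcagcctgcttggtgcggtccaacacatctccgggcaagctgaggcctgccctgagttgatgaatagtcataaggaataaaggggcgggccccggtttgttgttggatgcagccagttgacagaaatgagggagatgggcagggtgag
The Mdm2 and Trp53 windows held 1 match each, which begins at position -186 and -75 from the annotated start. Neither Trp73 window and neither of the 2 Mdm4 windows held one. Of all 32851 windows in the table, 8.36% held at least 1 match. These matches are descriptions of letters and were not tested for binding. Bases outside the windows were not searched, and Trp53 is itself the deleted gene.

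Total counts per library ranged from 16509710 to 22245224. Of the 10 endothelial markers, 10 rose in co-culture in both genotypes, where 35.8% of all genes were called in p53-/- NPCs and 39.5% in p53+/+ NPCs. Several of them, Pecam1 and Cdh5 among these, were under the filter's 0.521 CPM in every library alone. They entered the test only through co-culture libraries, so that their levels are a description. Their summed level was 87.9 to 100.4 CPM (counts scaled to the library's total) in p53-/- co-cultures against 11.05 to 16.8 CPM in p53-/- NPCs alone, and 100.1 to 156.4 CPM in p53+/+ co-cultures against 14.3 to 16.1 CPM in p53+/+ NPCs alone. The sum was lower in the p53-/- co-culture than in the p53+/+ co-culture in 3 of 3 experiments. Between genotypes edgeR called 0 of the 10 in either culture, and with the experiment as a replicate block it called 1, Flt1, a VEGF receptor, lower in p53-/- co-cultures (log2 -0.64, adjusted p = 0.0348). The NPC markers were high in every group, with a summed level of 7275 CPM or more. The mural and fibroblast markers summed to 1225 CPM in p53-/- NPCs alone and 692 CPM in p53+/+ NPCs alone of experiment 17_9, and to 83.7 to 156.8 CPM in the other 10 libraries. Of the 6 tested, 2 were higher with p53 loss alone, where 6.29% of all genes were called. They were Pdgfrb, a receptor of pericytes (log2 1.16), and Col1a1, a fibroblast collagen (log2 1.402, below the level set for naming genes). Both were low, with means of 2.88 and 3.47 CPM in p53-/- NPCs alone against 1.29 and 1.32 CPM in p53+/+ NPCs alone. In co-culture 0 were called, where 8.16% of all genes were. With the block 2 were higher and 1 was lower in co-culture, where 20.9% of all genes were called. Because the libraries are of bulk cells, a loss of a kind of cell and a loss of RNA per cell cannot be told apart.

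p53 loss lowered Trp53 and Mdm2, whereas Mdm4 and Trp63 did not pass edgeR's test. With DESeq2 and the replicate block, Mdm4 was called lower in NPCs alone (log2 -0.59). In NPCs alone, 2 of the 4 tested members were called (adjusted p under 0.05, edgeR's quasi-likelihood F test with Benjamini-Hochberg adjustment over all genes), both lower, where 6.29% of all tested genes were called in either direction. In co-culture the called members were again Trp53 and Mdm2, 2 of 4 and both lower, against 8.16% of all genes. With co-culture, 1 of 4 was called in p53-/- NPCs (Trp63, which entered the test only through co-culture libraries, so that its call is no support for a rise) where 35.8% of all genes were, and in p53+/+ NPCs 1 of 4 (Trp53, lower) where 39.5% were. The interaction, which is the co-culture effect in p53-/- NPCs minus that in p53+/+ NPCs, was called for 0 of 4 members by edgeR and for 0.0364% of all genes, which is 5 genes, with 976 genes at an unadjusted p under 0.05. Of the members, only Trp53 had an unadjusted interaction p under 0.05.

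**Figure D1:**
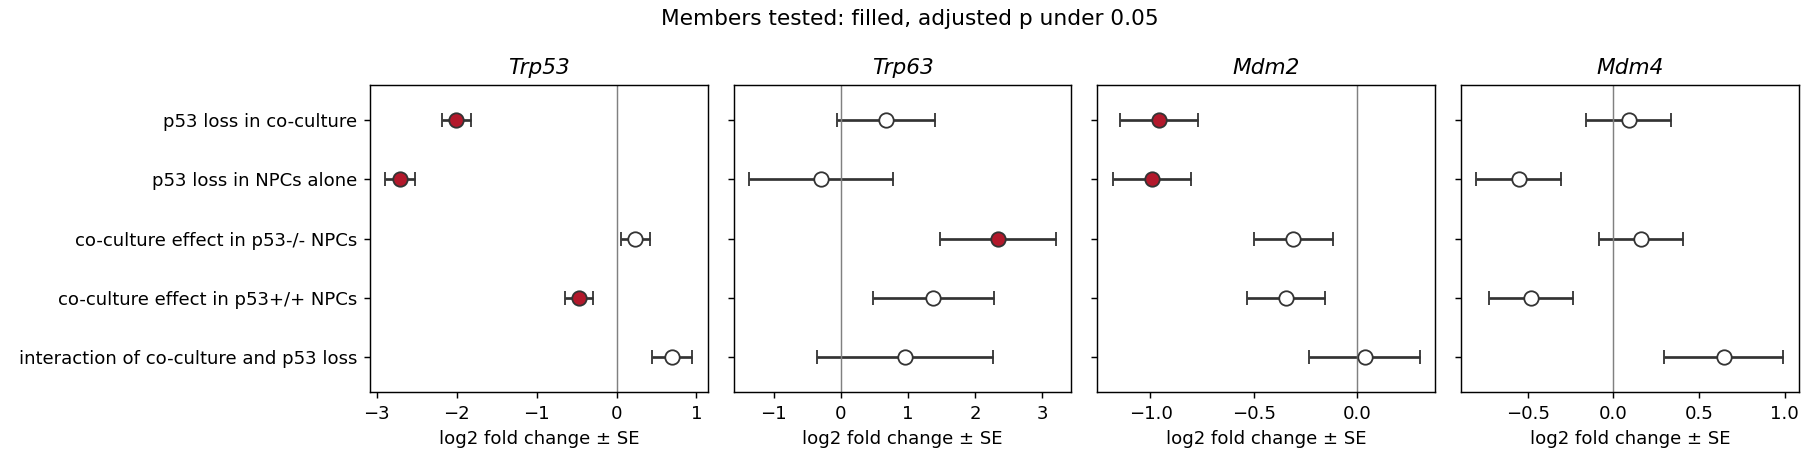
Log2 fold change (x axis) of the 4 tested members in each of the 5 comparisons (rows), with bars of 1 SE and filled points for an adjusted p under 0.05. Trp53 and Mdm2 lie left of 0 in both comparisons of p53 loss, and no point is filled in the interaction row.

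Trp53, the deleted gene, was present at 11.7, 14.7 and 17.4 CPM in p53-/- NPCs alone (experiments 17_9, 25_9 and 1_10), against 80.3, 96.6 and 108.6 CPM in p53+/+ NPCs alone. Every p53-/- library was far below every p53+/+ library, where 12.4% of all tested genes were lower without overlap, and both groups ranked their experiments in the same order. The group means were 14.6 ± 2.82 and 95.2 ± 14.2 CPM (SD, n = 3 each), a log2 fold change of -2.71 ± 0.19 (SE, edgeR adjusted p = 5.43e-06). In co-culture Trp53 stood at 18.4, 19.3 and 13.7 CPM in p53-/- NPCs, against 61.8, 65.9 and 78.8 CPM in p53+/+ NPCs. The groups again did not overlap, where 16.9% of all tested genes were lower without overlap, although the gap was narrower, with means of 17.1 ± 2.99 and 68.8 ± 8.84 CPM (SD, n = 3 each). The log2 fold change in co-culture was -2.01 ± 0.18 (SE, edgeR adjusted p = 4.47e-05). The 2 calls held in all 25 alternative settings and fits without a library or an experiment.

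Set against p53+/+ NPCs of the same experiment, the Trp53 level left in p53-/- co-cultures was 29.7%, 29.3% and 17.4% in 17_9, 25_9 and 1_10 (25.5% ± 6.98, SD, n = 3). Alone, the level left was 14.6%, 15.2% and 16.0% (15.3% ± 0.698, SD, n = 3), with little spread between experiments. Experiments 17_9 and 25_9 thus kept more Trp53 RNA in co-culture, while 1_10 stayed close to its value alone. The difference between cultures, tested as the interaction, was 0.70 ± 0.25 on the log2 scale (SE, edgeR adjusted p = 0.684) and was not called. Without experiment 1_10 the mean in co-culture was 29.5%. The summed endothelial level of the p53-/- co-cultures was 100.4, 92.6 and 87.9 CPM in 17_9, 25_9 and 1_10, against 156.4, 125.7 and 100.1 CPM in the p53+/+ co-cultures, and its part in the result was not tested. Counts per gene cannot tell reads of exons that remain after recombination from reads of unrecombined NPCs or of bmvECs.

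**Figure D2:**
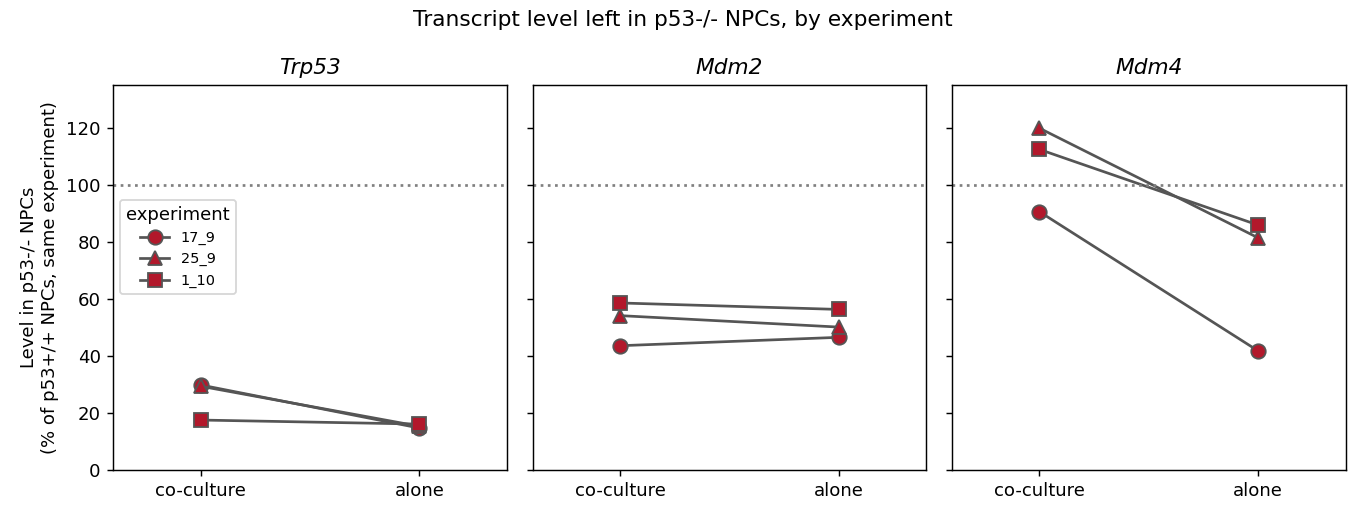
Level of Trp53, Mdm2 and Mdm4 in p53-/- NPCs as a percent of p53+/+ NPCs of the same experiment (y axis), in co-culture and alone (x axis), with a line per experiment and a dotted line at equal levels. Trp53 lies between 14.6% and 29.7%, Mdm2 averages 52.0% in co-culture and 50.9% alone, and Mdm4 scatters from 41.7% to 119.8%.

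In p53+/+ NPCs, co-culture lowered Trp53 itself. Every co-culture library was below every library of NPCs alone (78.8 CPM at most, against 80.3 CPM at least), as for 25.7% of all tested genes, and the level in co-culture was 72.6% ± 4.39 of that alone within experiments (SD, n = 3). The log2 fold change was -0.47 ± 0.17 (SE, edgeR adjusted p = 0.0465). The groups of p53-/- NPCs overlapped, with 2 experiments higher and 1 lower in co-culture, and the log2 difference was 0.23 ± 0.18 (SE, edgeR adjusted p = 0.337). The call in p53+/+ NPCs sat close to the threshold. It was lost when libraries were scaled by upper quartiles, by DESeq2's factors or not at all beyond their totals, and when 10 counts were asked of every library (adjusted p 0.0506 to 0.0780), without the p53+/+ co-culture library of 17_9 or 25_9, the p53+/+ library alone of 25_9 or 1_10, or the p53-/- co-culture of 25_9, and without all of 17_9 or all of 25_9 (highest adjusted p 0.282), with log2 fold changes of -0.58 to -0.37 over all fits that left something out. The endothelial markers rose in the same co-culture libraries, to summed levels of 156.4, 125.7 and 100.1 CPM in experiments 17_9, 25_9 and 1_10, and their part in the fall was not tested.

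**Figure D3:**
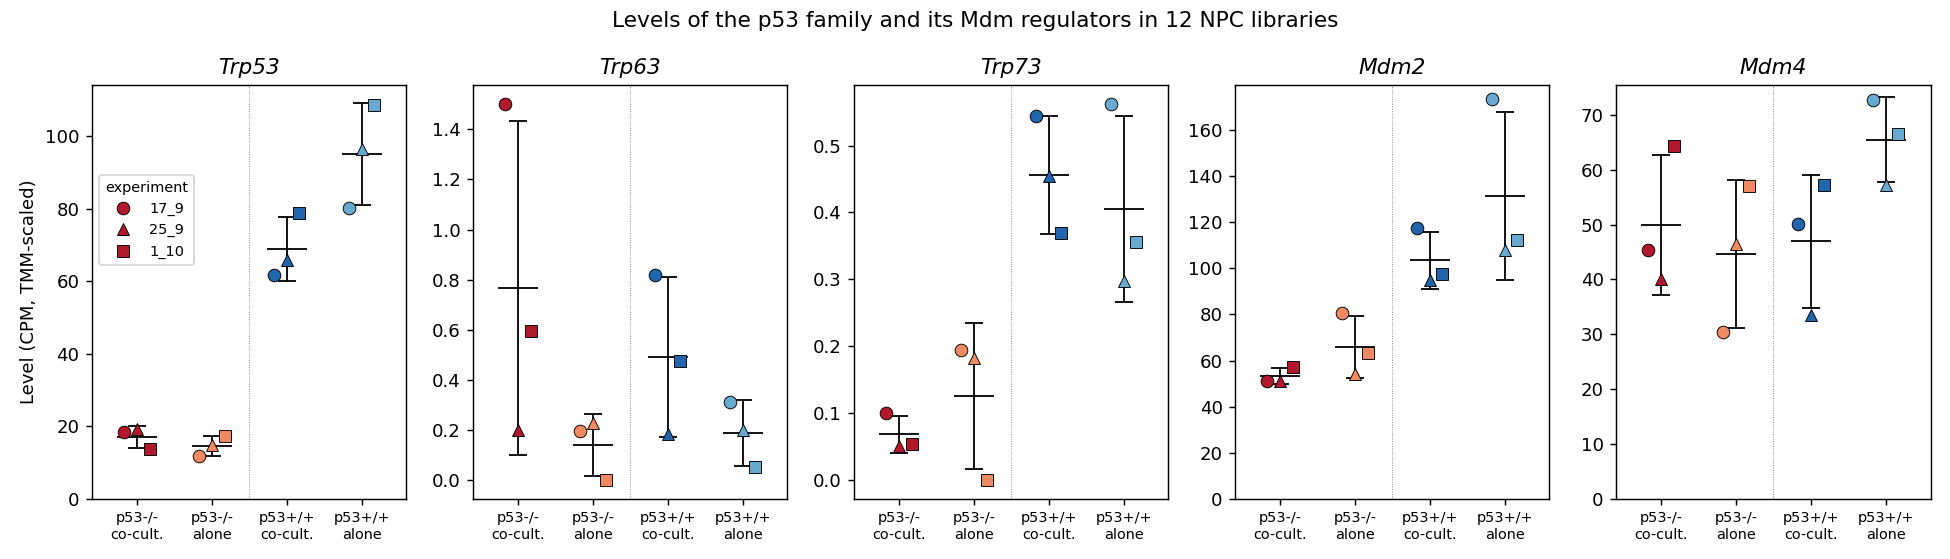
TMM-scaled level in CPM (y axis, from 0 or just under it) of the 5 members in each of the 12 libraries, by group (x axis) and experiment (symbol), with the mean as a bar and error bars of 1 SD over 3 libraries. Trp53 and Mdm2 are lower in all p53-/- libraries than in any p53+/+ library, whereas Trp63 and Trp73 reach at most 1.502 and 0.562 CPM.

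Wrap53, which encodes a telomerase and Cajal body protein, is the neighbour of Trp53 on chromosome 11 and is transcribed from the opposite strand, without overlapping exons in the GENCODE M21 basic annotation. It had 22.8, 20.6 and 20.5 CPM in p53-/- NPCs alone against 14.4, 18.8 and 20.3 CPM in p53+/+ NPCs alone. The log2 difference was 0.26 ± 0.15 (SE, edgeR adjusted p = 0.332), and in co-culture it was 0.07 ± 0.15 (SE, edgeR adjusted p = 0.810). The fall of Trp53 was thus not accompanied by a detectable fall of the neighbouring gene.

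Across the 12 libraries, the genes whose log2 CPM followed Trp53 most closely were Sesn2 (Pearson r = 0.989), Slc2a9 (r = 0.984), Lrrc28 (r = 0.983), Zmat3 (r = 0.982) and Piezo1 (r = 0.979). Sesn2, a stress-inducible inhibitor of mTORC1 signaling, and Zmat3, an RNA-binding protein, are known p53 targets. Because the libraries fall into a high and a low genotype, these coefficients describe mostly the distance between genotypes. The log2 fold change with p53 loss was -2.14 alone and -1.70 in co-culture for Sesn2, and -2.44 and -2.20 for Slc2a9, a urate transporter. Sesn2 in co-culture against alone was at -0.27 ± 0.14 in p53+/+ NPCs and 0.17 ± 0.14 in p53-/- NPCs (SE, edgeR adjusted p = 0.145 and 0.374).

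Trp63 and Trp73 were close to the limit of detection in every group. Trp63 had 30, 4 and 11 counts in p53-/- co-cultures against 4, 5 and 0 counts in p53-/- NPCs alone, and 15, 4 and 9 counts in p53+/+ co-cultures against 5, 4 and 1 counts in p53+/+ NPCs alone. The counts of experiment 25_9 were 4 or 5 in all 4 groups, and the higher ones came from the co-cultures of 17_9 and 1_10. A count of 0 in the p53-/- library alone of 1_10 allows up to 3 counts, which is 0.166 CPM. The gene passed the low-count filter only through 3 co-culture libraries (2 of p53-/- and 1 of p53+/+ NPCs), the side on which it was higher, so that its values with co-culture are a description. The log2 difference between co-culture and alone was 2.34 ± 0.86 in p53-/- NPCs (SE, edgeR adjusted p = 0.0499, and 0.0462 in a fit without the filter), where the groups overlapped, and 1.38 ± 0.90 in p53+/+ NPCs (SE, edgeR adjusted p = 0.241). The call in p53-/- NPCs was lost in 12 of the 14 fits that left out a library or an experiment, and without all of 17_9 the gene no longer passed the filter. Without the p53-/- co-culture of 17_9 the log2 fold change was 1.38 (adjusted p = 0.303), and the interaction of 0.96 ± 1.31 was not called (SE, adjusted p = 0.897).

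With p53 loss Trp63 did not pass the test, at log2 -0.29 ± 1.07 alone and 0.67 ± 0.73 in co-culture (SE, edgeR adjusted p = 0.894 and 0.606). Of the 12 genes of the list of p63-regulated epithelial genes, 6 were tested. The summed level of the 12 was 16.2 to 30.3 CPM in p53-/- co-cultures, 17.03 to 20.3 CPM in p53-/- NPCs alone, 16.6 to 19.2 CPM in p53+/+ co-cultures and 24.98 to 40.9 CPM in p53+/+ NPCs alone. Most of it came from Fras1, and the other 11 summed to 1.33 to 8.16 CPM in a library. With co-culture 3 of the 6 were higher in p53-/- NPCs, where 35.8% of all genes were called, and 3 were higher in p53+/+ NPCs, where 39.5% were. In p53+/+ NPCs 1 was lower, Fras1, an extracellular matrix protein of epithelial basement membranes (log2 -1.502 ± 0.28, SE, edgeR adjusted p = 0.00132). Like Trp63, some of the genes that were higher with co-culture passed the low-count filter only through co-culture libraries. The counts of higher genes in this list are thus no support for a rise.

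Trp73 had fewer counts in p53-/- NPCs, at very low levels. It had 4, 4 and 0 counts in p53-/- NPCs alone against 9, 6 and 7 counts in p53+/+ NPCs alone, and 2, 1 and 1 counts in p53-/- co-cultures against 10, 10 and 7 counts in p53+/+ co-cultures. No p53-/- library reached the lowest p53+/+ library, where 5.59% of all genes with a count were lower without overlap in both cultures. The 6 p53-/- libraries held 12 counts in all against 49 in the 6 p53+/+ libraries. Only 2 libraries passed the filter's 0.521 CPM, both of p53+/+ NPCs, so that the gene was not tested with the others. In a fit without the filter, the log2 fold change was -1.56 ± 0.66 alone and -2.62 ± 0.73 in co-culture (SE, edgeR adjusted p = 0.210 and 0.0414). In GENCODE M21, exons of Trp73 overlap those of the antisense gene Trp73os. The strand setting of the counting is not given, so that reads of this pair cannot be told apart.

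Foxj1, the transcription factor that drives motile cilium genes and lies downstream of p73 in mouse ependymal cells, was also lower without p53. It had 55.4, 38.8 and 28.6 CPM in p53-/- NPCs alone against 99.6, 104.2 and 87.2 CPM in p53+/+ NPCs alone, and 43.2, 54.9 and 40.8 CPM in p53-/- co-cultures against 136.9, 161.8 and 109.4 CPM in p53+/+ co-cultures. The genotypes did not overlap in either culture, where 7.35% of all tested genes were lower without overlap in both. The log2 fold change was -1.24 ± 0.22 alone and -1.56 ± 0.22 in co-culture (SE, edgeR adjusted p = 0.00512 and 0.00147). Of the 11 genes of the p73 multiciliation list, also chosen with earlier results of these data known, 9 were tested. With p53 loss alone 2 fell and 0 rose (median log2 -0.32, against 0.05 over all genes), where 6.29% of all genes were called, and in co-culture 2 fell and 0 rose (median -0.56, against 0.02 over all genes), where 8.16% were. With a replicate block for the experiment, 3 fell and 1 rose in co-culture, where 20.9% of all genes were called with the block. The gene that rose was Myb (log2 0.76, edgeR adjusted p = 0.0189 with the block). With co-culture 2 of the 9 were higher and 1 was lower in each genotype, a share no larger than the 35.8% and 39.5% of all genes called, with Rfx3, a ciliary transcription factor, higher (log2 0.72 in p53-/- NPCs and 0.54 in p53+/+ NPCs) and Myb lower (-0.94 and -1.31). The 6 ependymal markers, Foxj1 among them, are all part of the p73 multiciliation list, so that their sum is no separate line of support. The sum was mostly Foxj1, with a mean of 136.0 CPM in p53+/+ co-cultures. It was 51.4 to 69.2 CPM in p53-/- co-cultures and 36.2 to 78.2 CPM in p53-/- NPCs alone. In p53+/+ NPCs it was 130.1 to 196.3 CPM in co-culture and 100.3 to 134.0 CPM alone. Among these markers Tekt1, a component of ciliary microtubules, fell in co-culture with p53 loss (log2 -2.18 ± 0.44, SE, edgeR adjusted p = 0.0105). Tekt1 was named after its values were seen. With the replicate block it was at -2.19 in co-culture and -1.48 alone (edgeR adjusted p = 0.00131 and 0.0470). Whether a change in the share of multiciliated cells bears on Trp73 was not tested.

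Mdm2 in p53-/- NPCs was at about the same fraction of its p53+/+ level in both cultures. It had 80.5, 54.0 and 63.3 CPM in p53-/- NPCs alone, against 173.4, 108.0 and 112.5 CPM in p53+/+ NPCs alone. Experiment 17_9 was the highest in both groups, and the groups did not overlap, where 12.4% of all tested genes were lower without overlap. The log2 fold change was -0.99 ± 0.19 (SE, edgeR adjusted p = 0.00837). In co-culture Mdm2 had 51.2, 51.3 and 57.1 CPM in p53-/- NPCs, against 117.7, 94.9 and 97.7 CPM in p53+/+ NPCs. These groups did not overlap either, where 16.9% of all tested genes were lower without overlap. The log2 fold change was -0.96 ± 0.19 (SE, edgeR adjusted p = 0.00941). Within experiments the level left was 52.0% ± 7.71 in co-culture and 50.9% ± 4.95 alone (SD, n = 3 each), and the interaction was 0.03 ± 0.27 on the log2 scale (SE, edgeR adjusted p = 0.990). Both calls were lost where all libraries of experiment 25_9 (adjusted p = 0.119 alone and 0.173 in co-culture) or of 1_10 (adjusted p = 0.0549 and 0.0512) were left out, with log2 fold changes of -0.99 and -1.09 alone and of -0.99 and -1.04 in co-culture.

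Mdm2 was lower in co-culture in every experiment of both genotypes, without passing the test. Co-culture libraries were at 83.0% ± 16.9 of NPCs alone in p53-/- NPCs and at 80.9% ± 11.3 in p53+/+ NPCs (SD, n = 3 each), and the groups overlapped. The log2 differences were -0.31 ± 0.19 and -0.34 ± 0.19 (SE, edgeR adjusted p = 0.219 and 0.163). Without the p53+/+ library alone of experiment 17_9, which had the highest Mdm2 level of all and the mural marker sum of 692 CPM given above, the difference in p53+/+ NPCs was -0.10. The part of those markers in it was not tested.

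The genes that followed Mdm2 most closely over the 12 libraries were Ttll9 (Pearson r = 0.960), Dusp3 (r = 0.957), Ston1 (r = 0.956), Erlin2 (r = 0.954) and Pmaip1 (r = 0.949). Pmaip1 encodes Noxa, a BH3-only protein of the apoptotic pathway and a p53 target, and its log2 fold change with p53 loss was -3.25 alone and -3.31 in co-culture. As for Trp53, these coefficients describe mostly the distance between genotypes.

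Mdm4 did not pass edgeR's test without the replicate block in any of the 5 comparisons. It had 30.3, 46.5 and 57.09 CPM in p53-/- NPCs alone, against 72.7, 57.21 and 66.5 CPM in p53+/+ NPCs alone. Every p53-/- library was lower than any p53+/+ library, as for 12.4% of all tested genes, but only just for 1_10, and the spread in p53-/- NPCs was wide. The log2 difference was -0.55 ± 0.25 (SE, edgeR adjusted p = 0.196). In co-culture Mdm4 had 45.3, 40.1 and 64.3 CPM in p53-/- NPCs, against 50.1, 33.5 and 57.2 CPM in p53+/+ NPCs. These groups overlapped almost fully, at a log2 difference of 0.09 ± 0.25 (SE, edgeR adjusted p = 0.852). The level in p53-/- NPCs, relative to p53+/+ NPCs, was 90.5%, 119.8% and 112.4% in co-culture and 41.7%, 81.4% and 85.8% alone in experiments 17_9, 25_9 and 1_10. It was thus relatively higher in co-culture in all 3 experiments, but the interaction of 0.64 ± 0.35 was not called (SE, edgeR adjusted p = 0.742).

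In p53+/+ NPCs Mdm4 was lower in co-culture in 3 of 3 experiments (71.1% ± 13.9 of NPCs alone, SD, n = 3). The groups overlapped slightly, and the log2 difference was -0.48 ± 0.25 (SE, edgeR adjusted p = 0.139). With a replicate block for the experiment the difference was -0.51 ± 0.19 and passed the threshold (SE, edgeR adjusted p = 0.0403). The difference in p53-/- NPCs was 0.16 ± 0.25 (SE, edgeR adjusted p = 0.648), with 2 experiments higher and 1 lower. Among the genes closest to Mdm4 over the 12 libraries were Atrx (Pearson r = 0.975), a chromatin remodeler, Shprh (r = 0.967), a ubiquitin ligase of DNA repair, Ylpm1 (r = 0.951) and Ptar1 (r = 0.927). None of these 4 is among the closest genes of Trp53 or Mdm2.

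Per kilobase of the longest coding transcript in GENCODE M21, Trp53 and Mdm2 were the most abundant members in p53+/+ NPCs, at 36.9 and 32.9 CPM per kb in co-culture and 51.0 and 41.8 CPM per kb alone. In p53-/- NPCs Mdm2 led, at 16.9 CPM per kb in co-culture and 20.96 CPM per kb alone, above Trp53 at 9.17 and 7.82 CPM per kb. These Trp53 values use the length of the intact transcript, although which exons are removed is not given. The place of Trp53 in p53-/- NPCs is therefore uncertain. Mdm4 followed at 6.29 to 9.22 CPM per kb over the 4 groups, but at 23.3 to 34.2 CPM per kb if its shortest coding transcript is taken, so that its place depends on which transcript the cells make. Trp63 and Trp73 were at 0.143 CPM per kb or less on the longest transcript. Ordered by group, Trp53 was highest in p53+/+ NPCs alone and next in p53+/+ co-cultures, which did not overlap, and the p53-/- groups below them did overlap. Mdm2 had its p53+/+ groups above both p53-/- groups, and the cultures overlapped within each genotype.

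The fall of Mdm2 is set here beside that of other p53 target genes. Their list was chosen with earlier results of these data known, so that its counts and medians are a description. Of 32 targets, all tested, 20 fell and 0 rose with p53 loss alone (median log2 -1.52), where 6.29% of all genes were called, and 18 fell and 0 rose in co-culture (median log2 -1.25), where 8.16% were. Cdkn1a, which encodes the cyclin-dependent kinase inhibitor p21, fell to 9.84, 4.74 and 31.2 CPM in p53-/- NPCs alone, against 458.2, 350.2 and 407.8 CPM in p53+/+ NPCs alone. The p53-/- library of 1_10 held the most Cdkn1a and, at 17.4 CPM, the most Trp53 of the 3, but the rest did not keep this order. The library of 25_9 held more Trp53 than that of 17_9 (14.7 against 11.7 CPM) and less Cdkn1a. Among p53-/- co-cultures the most Cdkn1a was in 17_9 (21.7 CPM) and the most Trp53 in 25_9 (19.3 CPM). The log2 fold change of Cdkn1a was -4.74 ± 0.51 alone and -4.44 ± 0.50 in co-culture (SE, edgeR adjusted p = 0.000127 and 0.000293). The other targets with the strongest falls were Trp53cor1 (log2 -4.76 alone and -3.17 in co-culture), a long noncoding RNA known as lincRNA-p21, Eda2r (-4.66 and -4.67), a death-domain receptor, Ccng1 (-3.33 alone), which encodes cyclin G1, and Pmaip1 (-3.25 and -3.31). Mdm2, at -0.99 and -0.96, moved less than the median of the listed targets, which depends on the choice of the list.

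With co-culture the share of p53 targets called was no larger than that of all genes. In p53-/- NPCs 11 of 32 were called, where 35.8% of all genes were, and in p53+/+ NPCs 10 of 32, where 39.5% were. In p53-/- NPCs 6 rose and 5 fell (median log2 -0.05, against -0.01 over all genes), and in p53+/+ NPCs 2 rose and 8 fell (median -0.30, against 0.0005 over all genes). In both genotypes Plk2, a polo-like kinase (log2 -1.56 in p53-/- NPCs and -1.47 in p53+/+ NPCs), and Gtse1, a microtubule protein of dividing cells that also restrains p53 (-0.84 and -1.14), fell. Cdkn1a was at 0.23 ± 0.46 in p53-/- NPCs and -0.07 ± 0.43 in p53+/+ NPCs (SE, edgeR adjusted p = 0.726 and 0.909). None of the 32 was called in the interaction by edgeR.

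Without the replicate block, the other genes that control p53 stability and activity were called with its loss at about the rate of all genes. Of 36 such regulators, all tested, 1 rose and 2 fell in NPCs alone, where 6.29% of all genes were called, and 1 rose and 2 fell in co-culture, where 8.16% were. The medians were 0.05 and 0.22 on the log2 scale, against 0.05 and 0.02 over all genes. With the replicate block, 5 rose and 4 fell alone, and 6 rose and 2 fell in co-culture, where 16.6% and 20.9% of all genes were called. Cdkn2a, whose product Arf inhibits Mdm2, was at 86.8, 89.0 and 65.4 CPM in p53-/- NPCs alone, against 30.1, 50.3 and 37.9 CPM in p53+/+ NPCs alone. The groups did not overlap, and it rose by a log2 fold change of 1.03 ± 0.24 (SE, edgeR adjusted p = 0.0267). The co-cultures held 72.6, 90.4 and 62.9 CPM in p53-/- NPCs against 32.3, 60.6 and 38.1 CPM in p53+/+ NPCs, which only just did not overlap. The share of all genes higher without overlap was not computed for either culture. The log2 difference there was 0.79 ± 0.24 (SE, edgeR adjusted p = 0.0644), and with the replicate block 0.81 ± 0.15 (SE, adjusted p = 0.00339). The counts do not separate Arf from Ink4a transcripts of this locus. Usp2, a deubiquitinase that acts on Mdm2, fell in both cultures (log2 -0.94 ± 0.12 alone and -0.59 ± 0.11 in co-culture, SE, edgeR adjusted p = 0.000392 and 0.00878). The other called regulators were Herc2, a ubiquitin ligase of the DNA damage response, lower alone (-0.65, against 0.07 in co-culture), Rchy1, which encodes the p53 ligase Pirh2, lower in co-culture (-0.45, against -0.36 alone), and Sirt1, a deacetylase of p53, higher in co-culture (0.57, against 0.38 alone).

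Co-culture lowered many of the 36 regulators in both genotypes. In p53-/- NPCs 5 rose and 13 fell (median log2 -0.20, against -0.01 over all genes). In p53+/+ NPCs 2 rose and 18 fell (median -0.41, against 0.0005 over all genes). Thus 18 and 20 of 36 were called, where 35.8% and 39.5% of all genes were. Of all genes, 17% and 18.3% were called lower. Chek1, a checkpoint kinase (log2 -0.92 in p53-/- NPCs and -1.41 in p53+/+ NPCs), E2f1, a cell-cycle transcription factor that induces Arf (-0.97 and -1.38), and Setd8, a methyltransferase of histone H4 and p53 (-0.998 and -0.803), fell. Rpl5, a ribosomal protein that binds and inhibits Mdm2, fell as well (-0.72 and -0.60). Atm, the kinase that phosphorylates p53 and Mdm2 after DNA breaks, fell in p53+/+ NPCs (-0.84) and was at 0.06 ± 0.24 in p53-/- NPCs (SE, edgeR adjusted p = 0.865). The cofactors Ppp1r13b (1.23 and 0.88) and Trp53bp2 (0.66 and 0.53), known as ASPP1 and ASPP2, rose. Usp2 (0.59) and Herc2 (0.52) rose in p53-/- NPCs, with values of 0.24 and -0.21 in p53+/+ NPCs that did not pass the test. None of the 36 was called in the interaction by edgeR.

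**Figure D4:**
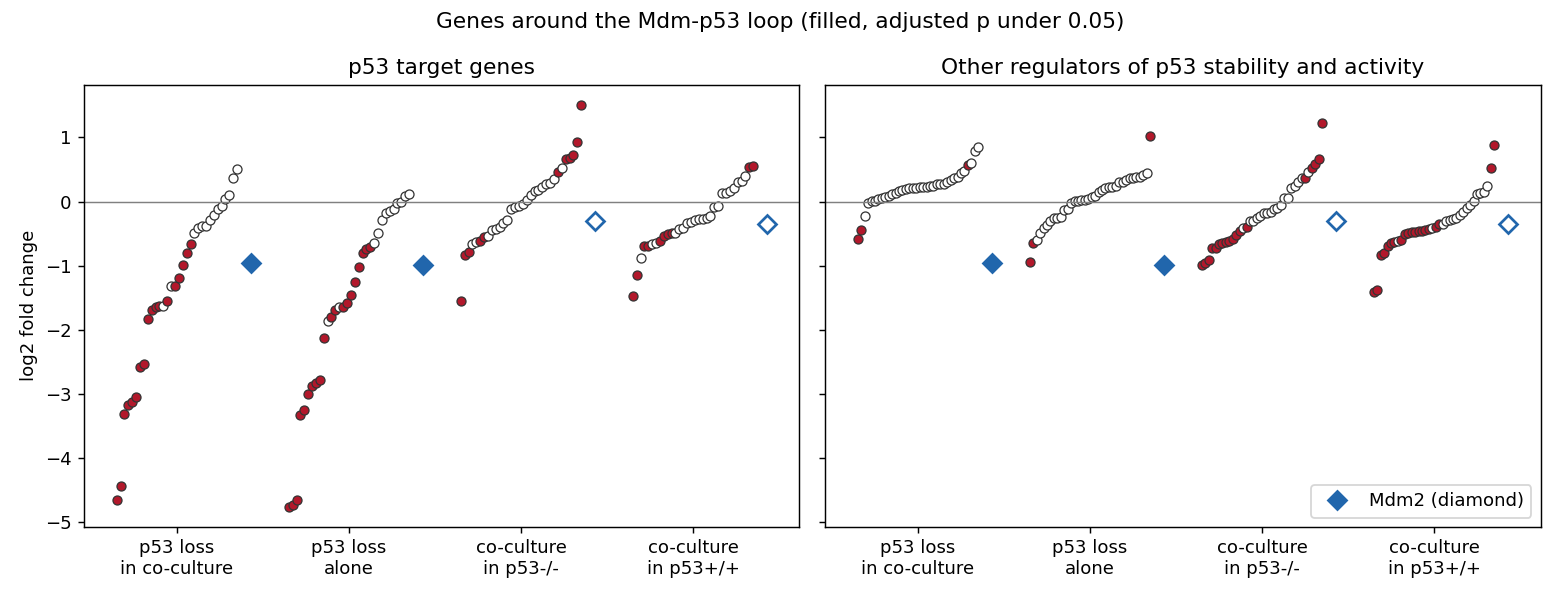
Log2 fold change (y axis) of 32 p53 target genes (left) and 36 other regulators of p53 (right), sorted within each of 4 comparisons (x axis), filled where the adjusted p was under 0.05, with Mdm2 as a blue diamond. With p53 loss alone the targets reach down to -4.76, the regulators span -0.94 to 1.03, and Mdm2 is at -0.99.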

How the data were processed

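Messenger RNA of 12 NPC libraries was sequenced from a stranded kit. Per the labels and the study's methods, the authors used TopHat2 2.0.11 for alignment to mm9 and deposited raw counts per gene from HTSeq 0.6.1, with no normalization. Neither the strand setting nor the gene annotation is given in the sources used here. Column names were matched to groups through the key of the study's count table.

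CPM were computed here from TMM-scaled library sizes (factors 0.961 to 1.04). Genes were kept by filterByExpr (minimum count 10) and tested in edgeR 4.0.16 (R 4.3.3) with its quasi-likelihood F test, 1 coefficient per group over all 12 libraries and a Benjamini-Hochberg threshold of 0.05 per comparison. Each SE is the absolute log2 fold change divided by the square root of F. The fit was tested on simulated counts. Precision for genes with few counts is limited by the 16509710 to 22245224 counts per library. For all genes it also depends on the spread between the 3 libraries of a group. The limit for a count of 0 (3 counts) covers counting error only. Counts of libraries of 1 group differed by 13.2 to 62.5 times the counting variance, so that none was a copy.

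The numbers 17_9, 25_9 and 1_10 pair the libraries, as the key of the count table states, and deviations from group means correlated in all 18 same-numbered pairs (r 0.128 to 0.618, against -0.608 to 0.241 in 36 other pairs). The fit with this replicate block called 2278 genes for p53 loss alone and 2872 in co-culture, against 864 and 1122 without it.

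The members and the lists (regulators, targets, p73 multiciliation, p63 epithelial genes and cell markers) were chosen with earlier results of these data known. Besides the members, up to 4 called genes of each list per side and comparison (mean log2 CPM 2 or more), Wrap53, Cdkn1a and the 5 genes most correlated with Trp53, Mdm2 and Mdm4 could be named, and some of these are not reported. Tekt1, Col1a1 and Flt1 fall outside this rule and were named after their values were seen. Marker lists of Cajal-Retzius cells and microglia were low, with summed levels of at most 34.3 and 4.93 CPM. Alternatives were other scalings, DESeq2 1.42.0 with and without the block, other filters, a fit of the groups compared, a threshold of 0.01, and fits without each library or experiment. Reference annotation was of GRCm38, and no coordinates were moved between builds. Figures were drawn with matplotlib 3.10.9.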

Additional observations from a re-analysis of the deposited data

How the results depend on the processing

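Over 25 settings the falls of Trp53 with p53 loss kept direction and call (log2 -2.88 to -2.57 alone and -2.14 to -1.75 in co-culture over fits that left out a library or an experiment). Mdm2 kept direction at -1.16 to -0.74 and -1.04 to -0.84 over the same fits. Its calls were lost without experiment 25_9 or 1_10. Trp53 in co-culture of p53+/+ NPCs (-0.47) ranged from -0.58 to -0.37 over these fits, and was no longer called with DESeq2 size factors (-0.47), upper-quartile scaling (-0.42), library size alone (-0.47), 10 counts in every library (-0.44) or a threshold of 0.01 (-0.47). The cause was not tested.

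Leaving something out turned the direction of results that were not called. Mdm4 with p53 loss in co-culture ranged from -0.13 to 0.26 and in co-culture of p53-/- NPCs from -0.067 to 0.36, the Mdm2 interaction from -0.22 to 0.20, and Trp63 with p53 loss from -0.83 to 0.22 alone and from -0.29 to 1.22 in co-culture. The Trp53 level left ranged from 23.3% to 29.5% in co-culture and from 14.9% to 15.6% alone.

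With the replicate block, edgeR called Mdm4 in co-culture of p53+/+ NPCs (-0.51), and DESeq2 with the block called it too (-0.51), as well as Mdm4 with p53 loss alone (-0.59) and Mdm2 in co-culture of p53+/+ NPCs (-0.33). The block changed no other call of the 4 tested members in edgeR.

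The number of genes called moved with the model. For p53 loss alone it was 864, against 1470 with DESeq2, 2563 with DESeq2 and the replicate block, 2278 with the block in edgeR, 349 with only the groups compared and 289 at 0.01. In co-culture it was 1122, against 1758, 3028, 2872 and, at 0.01, 330. For the interaction it was 5, against 1 with upper-quartile scaling, 25 with DESeq2, 275 with DESeq2 and the block, 11 with the block in edgeR and 1 at 0.01. At 0.01 the co-culture effects called 3287 genes in p53+/+ NPCs and 2713 in p53-/- NPCs. Over fits that left out a library or an experiment the numbers ranged from 120 to 894, 42 to 1338, 1989 to 5722, 2147 to 5301 and 0 to 6. Depth limits Trp63 and Trp73, which had at most 30 and 10 counts in a library.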
